A study of Mus musculus with 6 samples.

Results

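Broad H3K4me3 domains are the long tail of the H3K4me3 peaks in mouse embryonic fibroblasts (MEFs). They were selected on the deposited peak length, at 6000 bp or more, and 794 of the 11157 peaks (7.12%) met this length. H3K4me3 was profiled by ChIP-seq in untreated wildtype (WT) MEFs with 1 library and 1 input library. RNA was sequenced from WT MEFs before treatment and after 1.5, 6 and 24 hr of TNFα at 20 ng/ml, with 1 library per time. The MEFs of every library were primary cells of the strain C57BL/6x 129 from littermate embryos of day 13.5, passaged 4 times, and the RNA was polyA-selected. No library had a replicate, so the values below have no replicate check and no test was made, and the lengths, tags and fold enrichments all come from the peak calling that chose the domains. The fibroblast identity of the cells was checked on 11 marker genes, of which 11 had a peak over a start and 11 had an RPKM level above 1 in untreated cells. An RPKM level is here the mean of both deposited columns of a library divided by 85.7, a factor that puts them on the scale of the study's RPKM lists. Of the markers of other cell types, 1 of 5 endothelial genes had a peak and none of the epithelial, blood cell, neural or pluripotent genes did, although 2 of 4 neural and 1 of 6 blood cell genes had a level above 1.

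H3K4me3 is the trimethylation of lysine 4 on histone H3, a mark that is placed around the start sites of genes. It usually forms a narrow block over the promoter and the first nucleosomes downstream. In many cell types a minority of promoters carry the mark as a wide domain that runs into the gene body, and such domains have often been described at genes that define the identity of the cell.

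The start windows of 4 domains show the DNA at the starts they cover. They are the 3 longest domains and the domain with the fewest CpG per base, read at the covered start nearest the summit of the coding gene with the highest untreated level. Each sequence runs from 250 bases before to 50 bases from the start (300 bases in all, mm9, 5′ to 3′ on the strand of the gene), with each CpG dinucleotide in capitals:
Hoxa11: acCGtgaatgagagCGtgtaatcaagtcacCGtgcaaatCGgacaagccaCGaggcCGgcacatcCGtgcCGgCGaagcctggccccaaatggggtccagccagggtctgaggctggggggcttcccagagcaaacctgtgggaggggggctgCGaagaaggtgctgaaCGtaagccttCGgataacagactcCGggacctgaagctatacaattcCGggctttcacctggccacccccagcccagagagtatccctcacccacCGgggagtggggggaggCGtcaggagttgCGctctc
Hoxa9: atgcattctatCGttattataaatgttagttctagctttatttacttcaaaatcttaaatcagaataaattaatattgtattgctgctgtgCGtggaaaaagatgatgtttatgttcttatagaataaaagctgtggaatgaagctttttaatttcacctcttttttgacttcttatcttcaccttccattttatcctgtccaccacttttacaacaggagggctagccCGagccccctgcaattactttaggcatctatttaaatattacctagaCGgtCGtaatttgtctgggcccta
Plec: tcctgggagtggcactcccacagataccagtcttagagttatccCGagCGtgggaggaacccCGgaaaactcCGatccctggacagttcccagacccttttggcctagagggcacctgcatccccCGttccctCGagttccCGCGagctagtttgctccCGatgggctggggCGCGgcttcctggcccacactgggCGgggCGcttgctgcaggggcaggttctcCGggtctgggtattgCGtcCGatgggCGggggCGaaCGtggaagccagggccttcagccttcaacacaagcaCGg
Bgn: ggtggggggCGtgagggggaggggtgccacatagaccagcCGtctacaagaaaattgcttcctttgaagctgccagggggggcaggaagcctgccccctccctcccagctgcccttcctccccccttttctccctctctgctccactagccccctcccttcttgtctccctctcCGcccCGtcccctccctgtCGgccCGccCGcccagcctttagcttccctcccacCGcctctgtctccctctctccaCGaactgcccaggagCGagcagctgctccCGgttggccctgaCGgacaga
The windows are chr6:52196164-52196463 (minus strand), chr6:52181039-52181338 (minus strand), chr15:76028590-76028889 (minus strand) and chrX:70728733-70729032 (plus strand). They span the promoter and the first exon bases of the named transcripts. They held 17, 5, 20 and 12 CpG. The same window at 1 start of each of 22260 coding genes held a median of 12 CpG (quartiles 3 and 24), so 4 of these 4 windows lay within the quartiles. Over the whole Bgn domain of 8997 bp there were 6.89 CpG per kb, against a median of 29.7 over the broad domains. Bgn encodes biglycan, a proteoglycan of the matrix.

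The broad domains were between 6002 and 25026 bp long, with a median of 7089 bp. Of them, 369 (46.5%) were under 7 kb, 90 were 10 kb or longer, 12 were 15 kb or longer and 3 were 20 kb or longer. No gap in length set the broad domains apart from the other peaks. Just inside it were the peaks of Cacnb3 (6002 bp), Atp5c1 and Kin (6003 bp), Spred1 (6007 bp), Copa and Ncstn (6011 bp) and Foxo3 (6011 bp). Just outside it were those of Tet3 (5998 bp), Pacs2 (5997 bp), Cdk13 (5996 bp), Mex3d (5996 bp) and Arf4 (5994 bp). Together the broad domains covered 6.18 Mb, which was 15.7% of the bases and 15.8% of the tags in peaks.

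**Figure D1:**
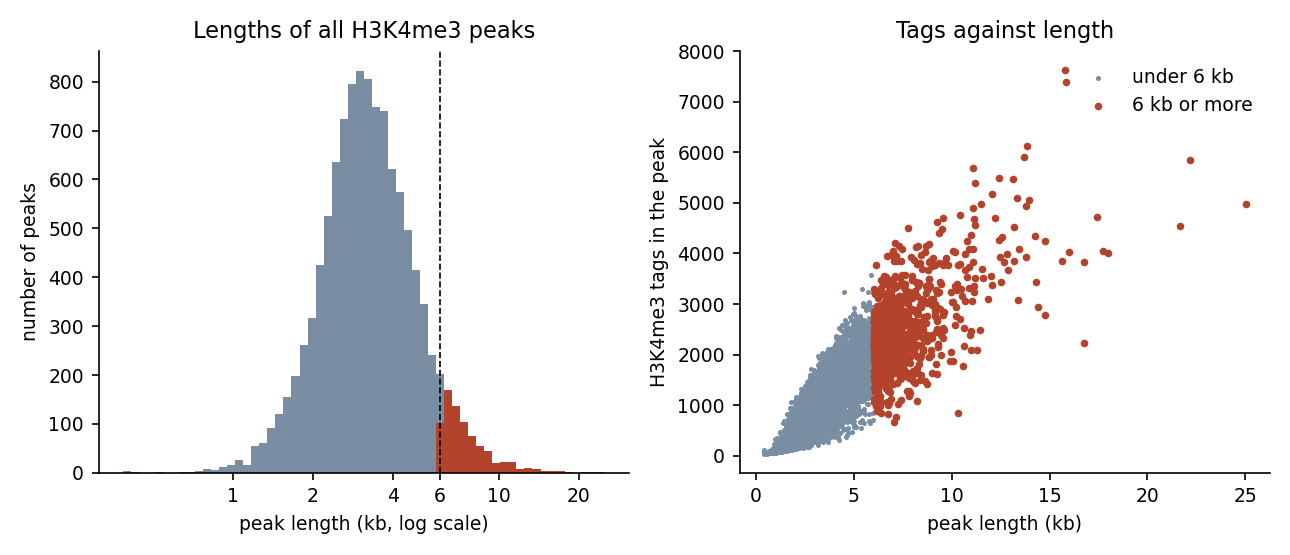
Left, the number of all 11157 peaks by length in kb on a log scale, with the 6 kb minimum as a dashed line and the broad domains in red. Right, the tags of each peak against its length in kb, with the 794 broad domains in red. Tags rose with length, and the domains of similar length spread widely in tags, from 662 to 7627.

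The broad domains were as densely tagged as other peaks. They held a median of 2424.5 tags, and the median density was 326 tags per kb (lowest 81.6, highest 617), against 319 in the shorter peaks. The density was 164 tags per kb in peaks under 2 kb, 352 from 4 to 6 kb, 335 from 6 to 8 kb and 303 at 10 kb and over. The greater length was thus not accompanied by a higher density. The median fold enrichment given by the peak caller was 52.2 against 45.0 in shorter peaks. The score of the peak caller was at its upper limit of 3100 for 790 of the 794 domains, so it does not rank them.

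The longest domains were those of the HoxA cluster. The longest, chr6:52192032-52217057, covered the starts of Hoxa11 and Hoxa13, and the next, chr6:52169701-52191866, covered Hoxa7, Hoxa9 and Hoxa10. The Hox genes encode transcription factors that set position along the body axis and the limb. The gap between these 2 domains was 165 bp. A further domain of 16752 bp, chr2:74515882-74532633, covered Hoxd10 and Hoxd11. Their RNA was low: in untreated cells the levels, in RPKM, of Hoxa13, Hoxa10, Hoxa11, Hoxa7, Hoxd10, Hoxa9 and Hoxd11 ran from 0.335 to 1.09.

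The other domains of the 10 longest belonged mostly to genes with much more RNA. That of Plec (plectin, a linker of the cytoskeleton) was 21650 bp long, and that of Tbx15 (a T-box transcription factor of mesenchyme) 17979 bp. Those of Pmepa1 (an inhibitor of TGF-β signalling), Thbs1 (thrombospondin) and Lmna (lamin A/C of the nuclear envelope) followed with 17744, 17408 and 16765 bp. The domain of Kctd10 and Ube3b, which are transcribed away from each other, had 15998 bp, and that of Smad7 (an inhibitory SMAD) 15843 bp. The untreated RPKM levels of Lmna, Thbs1, Plec, Pmepa1 and Tbx15 were 73.4, 72.4, 56.9, 39.2 and 11.1, whereas Smad7 had 1.32.

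The most tags were found over Tnrc18 (7627 tags), Smad7 (7385), Brd2 (6126), Irf2bp2 (5912) and the domain of Hoxa7, Hoxa9 and Hoxa10 (5856). Brd2 encodes a bromodomain protein that binds acetylated histones. The highest density was that of Anp32a (617 tags per kb), followed by Jun (595), Efna5 (591), Slit2 (580) and Ppp1r15b (577). Jun is a subunit of the AP-1 transcription factor, and Efna5 and Slit2 encode guidance cues. The lowest was that of Tbx5 (81.6 tags per kb), followed by Igf2 (93.9), Tcfap2b (107), Col6a3 (122) and Gng8 (131). Density and RNA level did not go together in these examples: Igf2, a growth factor of the embryo, had an untreated RPKM level of 33.1 and Ppp1r15b had 0.567.

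Nearly all of the broad domains covered the start of a coding gene. A protein coding start of the GENCODE annotation lay under 758 of them (95.5%), against 89.1% of the shorter peaks and 95.8% of the peaks of 4 to 6 kb. Of the domains, 609 covered the starts of 1 coding gene, 134 of 2, 13 of 3 and 2 of 4. Starts on both strands lay under 130 domains (16.4%), against 9.98% of the shorter peaks and 18.2% of the peaks of 4 to 6 kb. Both shares were thus close to those of the peaks next to them in length. In all, the starts of 912 coding genes were covered, 9 of them by 2 domains.

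Most of the extra length of the broad domains lay downstream of the first covered start. Over the 609 domains with a single coding gene, the median reach was 5542 bp downstream (quartiles 4754 and 6553) and 1586 bp upstream (quartiles 1151 and 2277) of the first covered start. In the shorter peaks it was 2087 and 934 bp. More than 1 start of the gene was covered in 56.0% of the 609 domains, against 49.2% of the shorter peaks. Measuring from the first of them adds to the downstream reach. The share of the domain downstream of the start was 77.3% at 6 to 8 kb, 80.8% at 8 to 10 kb and 82.7% at 10 kb and over, against 68.7% in the shorter peaks. The summit lay downstream of the start in 571 of 609 domains (93.8%), a median of 574 bp from it, and in 93.4% of the shorter peaks, a median of 276 bp from it. The genes were of similar length: the median was 29042 bp, against 27991 bp for the shorter peaks.

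**Figure D2:**
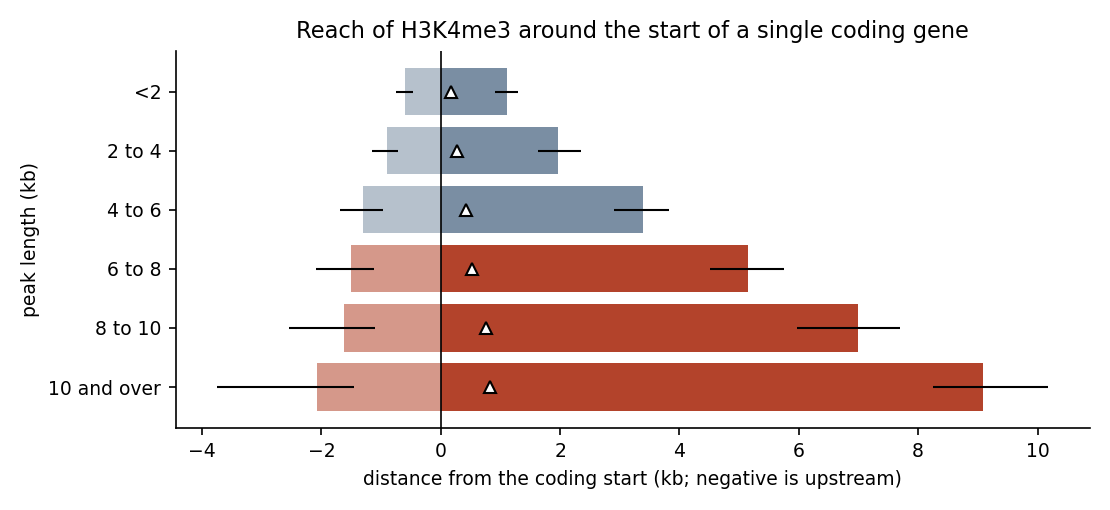
Bars show the median reach of H3K4me3 upstream (light) and downstream (dark) of the coding start in kb, for peaks over 1 coding gene in 6 length classes, with broad domains in red. Lines are the quartiles and triangles the median position of the summit. The downstream reach grew from 1117 bp in the shortest class to 9080 bp in the longest, while the upstream reach grew from 601 to 2072 bp.

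Single domains departed from this picture. That of Plec reached 21296 bp downstream and 353 bp upstream of its first covered start, with the summit 11114 bp from that start. It covered 10 starts of Plec, so these distances depend on the start taken. The window of Plec printed above is at the covered start nearest the summit. That of Tnrc18 was nearly symmetric, with 7363 bp upstream and 8409 bp downstream. In 61 domains (10.0%) the mark spanned the whole gene, against 2.14% of the shorter peaks. A longer peak can span longer genes, so a higher share follows from the length rule, and these shares are not corrected for length. The genes spanned by the 61 domains were short, with a median length of 3640 bp. Among them were Irf2bp2, Irx2, Cyr61, Bhlhe40, Fzd7, Id2, Spry2, Twist1, Zfp36, Hes1, Jun, Junb, Myc and Actb. Those named were picked from the longest such domains and from the lists below. Over Myc, the domain was 8157 bp long and the gene 4984 bp.

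The broad domains held fewer CpG for their base composition than shorter peaks, but not at their summits. The median GC content was 51.2%, against 50.5% in the shorter peaks. The ratio of observed to expected CpG was 0.463 in the broad domains, 0.40 in those of 10 kb and over, and 0.524 in the shorter peaks. Within 500 bp of the summit it was 0.727 and 0.726.  Of the 794 domains, 768 (96.7%) held at least 1 tile of 200 bp with a GC content of at least 50% and a CpG ratio of at least 0.6. Among the shorter peaks, 6.01% held no such tile, and a shorter peak has fewer tiles. The broad domains were unevenly spread over the chromosomes, from 88 on chromosome 11 (9.92% of its peaks) to 7 on chromosome X (2.06%).

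Genes under broad domains had more RNA than other genes in untreated MEFs. An RPKM level was found for 882 of the 912 genes. Its median was 3.42 (quartiles 1.21 and 10.3), against 0.985 for 9809 genes under a shorter peak and 0.0035 for 9191 genes with no peak. A level above 1 was found for 700 of the 882 genes (79.4%), for 49.7% of the genes under a shorter peak and for 6.03% of those with no peak. The difference was smaller next to the length minimum. Under peaks of 4 to 6 kb the median was 1.81 and 65.1% of the genes were above 1. Under those of 6 to 8 kb the values were 3.07 and 76.2%. None of the 882 genes was listed at 0, whereas 45.4% of the genes with no peak were. In these bulk samples, fewer cells that express a gene and less RNA per cell cannot be told apart.

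The level also rose with length within the broad domains, from a median of 3.07 at 6 to 8 kb to 5.06 at 8 to 10 kb and 5.66 at 10 kb and over. Spearman's rho of length and level was 0.17 across the 882 genes, a description over genes of 1 library each, and across all 10691 genes with a peak it was 0.385. Density went with the level less closely, with a rho of -0.03 across the 882 genes. A high level did not imply a broad domain: of the 1564 genes in the highest of 10 equal groups by level, 295 (18.9%) had a broad domain and 93.7% had a peak.

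**Figure D3:**
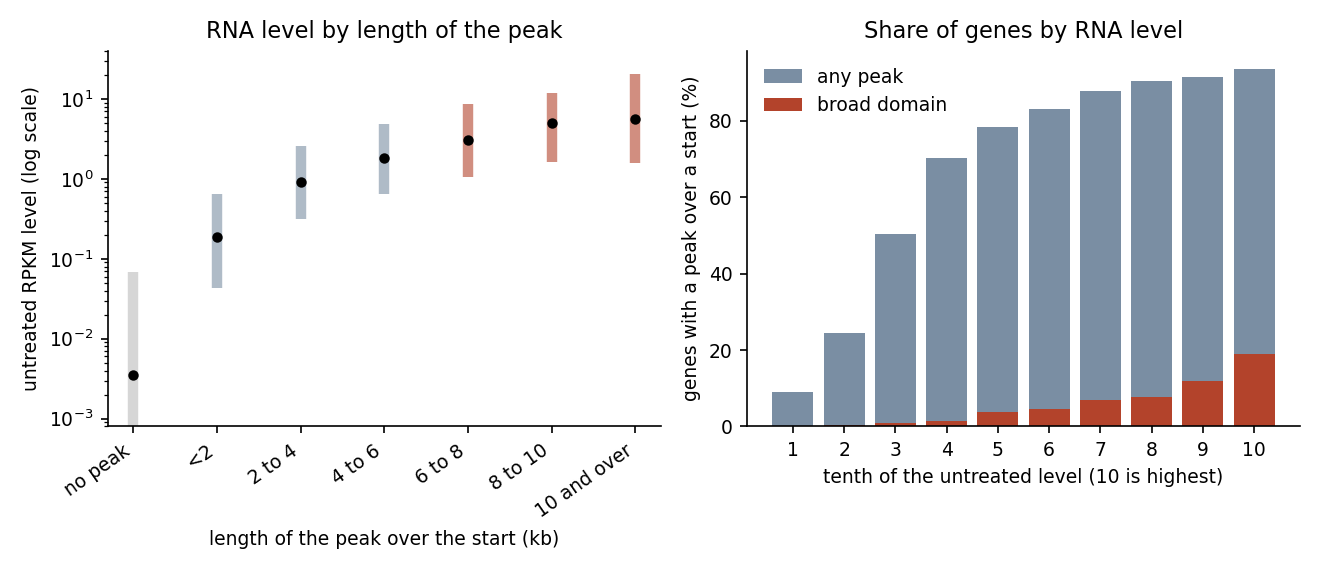
Left, the untreated RPKM level (log scale) of coding genes by the length of the peak over their start, with the median as a point and the quartiles as a bar. The lower quartile of genes with no peak is 0, so that bar runs to the foot of the axis. Right, the share of genes with any peak and with a broad domain in each of 10 equal groups of genes by untreated level. The share with a broad domain rose from 0% in the lowest group to 18.9% in the highest, and the share with any peak from 9.01% to 93.7%.

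The extremes show how wide this range was. Actb (cytoplasmic actin) had levels of 1336, 1124, 593 and 692 RPKM in the untreated, 1.5, 6 and 24 hr libraries. Lgals1 (galectin-1) had 971, 1420, 488 and 1403. Ftl1 (ferritin light chain) had 768, 679, 262 and 552. Myl6 (a myosin light chain) and Col1a1 (a chain of type I collagen) had untreated levels of 653 and 514. At the other end, no gene was at 0, so the lowest genes were taken instead of genes listed at 0. Fgf9 (a fibroblast growth factor) had 0.0147, 0.0675, 0.314 and 0.15 RPKM under a domain of 7243 bp. Gen1, Fam72a, Pcdh10 and Pcdh17 had untreated levels between 0.0369 and 0.0545, under domains of 6820 to 7678 bp. Values this low rest on very few reads.

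The functions of the covered genes were described with 10 lists, which were drawn up with earlier results of these data known. Across all 22125 annotated coding genes, 4.12% had a broad domain and 49.5% had any peak. Of the mesenchymal transcription factors, 34 of 62 (54.8%) had a broad domain. Their untreated levels were modest, with a median of 1.53 RPKM over the 34 and a range from 0.279 to 29.9. The longest were those of Tbx15, Lhx9 (14418 bp), Meis1 (14333 bp), Irx5 (13378 bp), Meis2 (12812 bp), Prrx1 (11108 bp), Tbx5 (10336 bp) and Twist1 (9458 bp). Prrx1 and Twist1 are regulators of limb and connective tissue mesenchyme. Their untreated levels were 4.68 and 1.66 RPKM, and that of Irx5 was 0.340.

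Genes of the fibroblast matrix and cytoskeleton had broad domains and high levels. A broad domain lay over 19 of 32 genes (59.4%) of collagens and matrix and over 18 of 24 genes (75%) of actin and contraction. The matrix group included Thbs1, Col1a1 (14262 bp), Cyr61 (11496 bp, a matricellular protein), Loxl1 (11131 bp, a crosslinker of elastin), Fn1 (10457 bp, fibronectin), Sparc (9966 bp), Col5a1 (9485 bp) and Col1a2 (9400 bp). Its members with a level had a median of 28.5 RPKM. The contractile group included Myh9 (13194 bp, non-muscle myosin), Tpm1 (13155 bp, tropomyosin), Actn1 (11565 bp, α-actinin), Vim (11094 bp, vimentin), Flna (10912 bp, filamin), Cnn2 (10886 bp, a calponin), Zyx (10523 bp, zyxin) and Cald1 (10259 bp, caldesmon), with a median of 65.8 RPKM over the 18.

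Genes that respond early to growth factors also had them. Each of the 27 immediate-early genes had a peak, and 17 (63.0%) had a broad domain, although the median level of the 17 was 2.0 RPKM. The longest were those of Fosl2 (12573 bp, an AP-1 subunit), Zfp36 (9255 bp, a factor of AU-rich mRNA decay), Zfp36l1 (8217 bp), Myc, Klf6 (7478 bp), Junb (7357 bp), Dusp1 (7238 bp, a MAPK phosphatase) and Btg1 (7108 bp). Fos and Atf3 were outside with peaks of 5596 and 5898 bp. In TGF-β, BMP and Wnt signalling, 17 of 32 genes (53.1%) had a broad domain, among them the inhibitors Smad7, Ski (10690 bp) and Smad6 (7621 bp), the ligand Wnt5a (10426 bp), the receptor Fzd7 (10047 bp), the effector Tcf7l2 (11043 bp), and Id2 (9606 bp) and Tgif1 (9230 bp). Of the Hox cluster genes, 8 of 39 (20.5%) had one, the 7 named above and Hoxc6 (8229 bp), and 22 of the 39 had no peak.

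**Figure D4:**
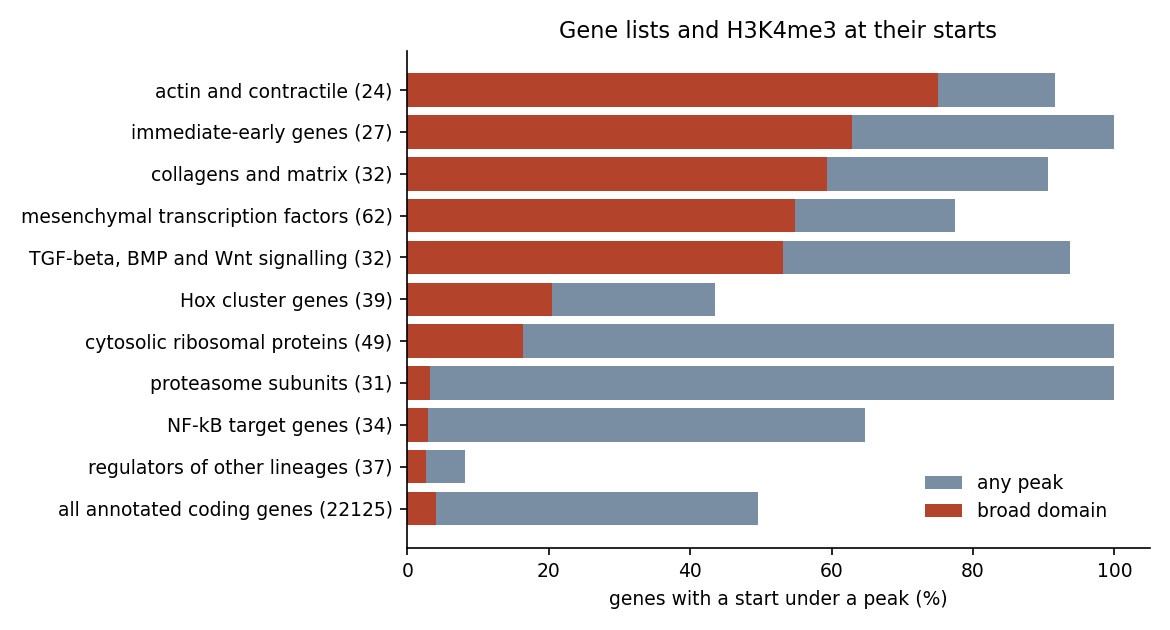
The share of genes in each list (number of annotated genes in brackets) with a start under any peak (grey-blue) and under a broad domain (red), in percent. Proteasome and ribosomal protein genes all had a peak and few broad domains, 3.23% and 16.3%, against 75% of the actin and contractile genes.

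Other active genes mostly carried shorter peaks. Of 49 cytosolic ribosomal protein genes, 49 had a peak and 8 (16.3%) a broad domain, although the list's median level was 112 RPKM. They included Rpl35 (8653 bp), Rpl18 (7929 bp) and Rps18 (7547 bp), and ribosomal protein genes have many near-identical pseudogene copies that can share their reads. Of 31 proteasome subunit genes, 31 had a peak and 1 (Psmb3, 8360 bp) a broad domain, at a median level of 9.49 RPKM for the list. Of 37 regulators of other lineages, 3 had a peak and 1 (Ebf1, 6386 bp, a factor of B cells and of mesenchyme) a broad domain.

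Of 34 NF-κB target genes, 22 had a peak in untreated cells and 1 (2.94%), Nfkbiz (8688 bp, an atypical IκB protein), had a broad domain, a share near the 4.12% of all coding genes. The count rests on the length minimum: at 5000 bp it was 8 of 34 (23.5%), against 7.90% of all coding genes, and Gadd45b had a peak of 5992 bp. At 5000 bp the actin and contractile list had 21 of 24 (87.5%) and the proteasome list 3 of 31 (9.68%). The levels of Nfkbiz were 2.83, 2.98, 2.63 and 2.92 RPKM in the untreated, 1.5, 6 and 24 hr libraries, and it did not pass the 2-fold criterion at any time.

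Of the 794 domains, 36 covered no coding start. Another annotated start lay under 15 of them and none under 21, and 26 were more than 10 kb from the nearest coding start. They included the loci of 2 abundant nuclear RNAs, Malat1 (chr19:5793692-5804905, 11214 bp) and Neat1 (chr19:5836574-5851331, 14758 bp). The domain of Malat1 held 5391 tags and had the highest fold enrichment of the broad domains, 181. Malat1 had 501, 170, 337 and 152 RPKM in the untreated, 1.5, 6 and 24 hr libraries, and Neat1 had 96.8, 20.1, 89.6 and 19.6. For both, the 1.5 and 24 hr libraries were low and the untreated and 6 hr libraries high.

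MicroRNA genes were found in several of these domains. Hairpins lay inside 4 of the 36 (11.1%), against 1.78% of the 1126 shorter peaks without a coding start, and inside 3.27% of all broad domains against 0.878% of all shorter peaks. A longer interval holds more features of any kind, and these shares are not corrected for length. The hairpins were Mir199a-2 and Mir214 within Dnm3os, and Mir21, Mir22 and Mirlet7i. Their mature sequences, from RefSeq (GRCm38.p6), are printed with the seed (bases 2 to 8) in capitals, since the seed sets which mRNAs a miRNA can pair with:
miR-199a-5p: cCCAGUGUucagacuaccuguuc
miR-199a-3p: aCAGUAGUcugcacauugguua
miR-214-5p: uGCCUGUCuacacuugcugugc
miR-214-3p: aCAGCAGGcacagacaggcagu
miR-21a-5p: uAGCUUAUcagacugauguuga
miR-21a-3p: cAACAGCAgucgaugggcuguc
miR-22-5p: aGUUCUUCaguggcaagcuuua
miR-22-3p: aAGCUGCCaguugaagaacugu
let-7i-5p: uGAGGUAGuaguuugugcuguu
let-7i-3p: cUGCGCAAgcuacugccuugcu
No seed occurred more than once among them. Small RNAs were not sequenced, so their own levels are not known here. The host transcript Dnm3os had 4.92, 3.02, 1.91 and 2.13 RPKM in the untreated, 1.5, 6 and 24 hr libraries, highest in the untreated library. Its domain, chr1:164146413-164154438, had 8026 bp and 2311 tags, and was poor in CpG with 9.22 per kb. Pvt1 (7867 bp) and Dleu2 (6462 bp), 2 long noncoding RNAs, also started under such domains, with untreated levels of 1.02 and 0.566 RPKM.

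Values across the TNFα time course differed between libraries as a whole. Relative to the untreated library, the RPKM summed over genes came to 1.20 in the 1.5 hr library, 0.542 in the 6 hr library and 0.969 in the 24 hr library. The median log2 ratio of 6488 coding genes with an average RPKM level above 1 was 0.45, -0.74 and 0.11 at these times. The average is taken over the 4 libraries, so a gene low in untreated cells can pass through its TNFα values. Ratios also went with the GC content of the transcript. Across the 709 genes under broad domains that passed this filter, Spearman's rho of GC content with the log2 ratio to untreated came to -0.47, -0.28 and -0.48 for the 3 TNFα libraries in order of time, and across the 6488 genes to -0.57, -0.36 and -0.55. The ratio of 1.5 hr to untreated and that of 24 hr to 6 hr share no library. Their rho was 0.76 across the 709 genes and 0.72 across the 6488 genes. The part of library composition in the values below was not tested beyond the alternatives given.

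As deposited, 198 of the 709 genes (27.9%) were at least 2-fold higher at 1.5 hr, where the background over the 6488 genes was 29.9%, and 66 (9.31%) were at least 2-fold lower, with a background of 7.83%. At 6 hr, 4 genes (0.564%) were higher (background 1.7%) and 201 (28.3%) lower (background 31.3%). At 24 hr, 100 genes (14.1%) were higher (background 16.8%) and 110 (15.5%) lower (background 12.7%). The 4 higher genes at 6 hr were a smaller share than the background, and the other shares lay near it. The median log2 ratios of the 709 genes were 0.35, -0.69 and 0.01, within 0.1 of those of the 6488 genes at each time. After the median of 20 bins of GC content had been subtracted, 94 genes were higher and 85 lower at 1.5 hr (13.3% and 12.0%, against 10.8% and 10.5% of the 6488 genes). At 6 hr 32 were higher and 17 lower (4.51% and 2.40%, against 4.89% and 2.60%), and at 24 hr 88 and 78 (12.4% and 11%, against 10.3% and 8.99%). Relative to the median of the 6488 genes, the shares of those genes at least 2-fold higher and lower were 15.7% and 17.3% at 1.5 hr, 7.07% and 3.16% at 6 hr, and 14.2% and 15.2% at 24 hr. On the same scale, 97 of the 709 genes were higher and 141 lower at 1.5 hr (13.7% and 19.9%). At 6 hr 40 were higher and 19 lower (5.64% and 2.68%), and at 24 hr 88 and 129 (12.4% and 18.2%).

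**Figure D5:**
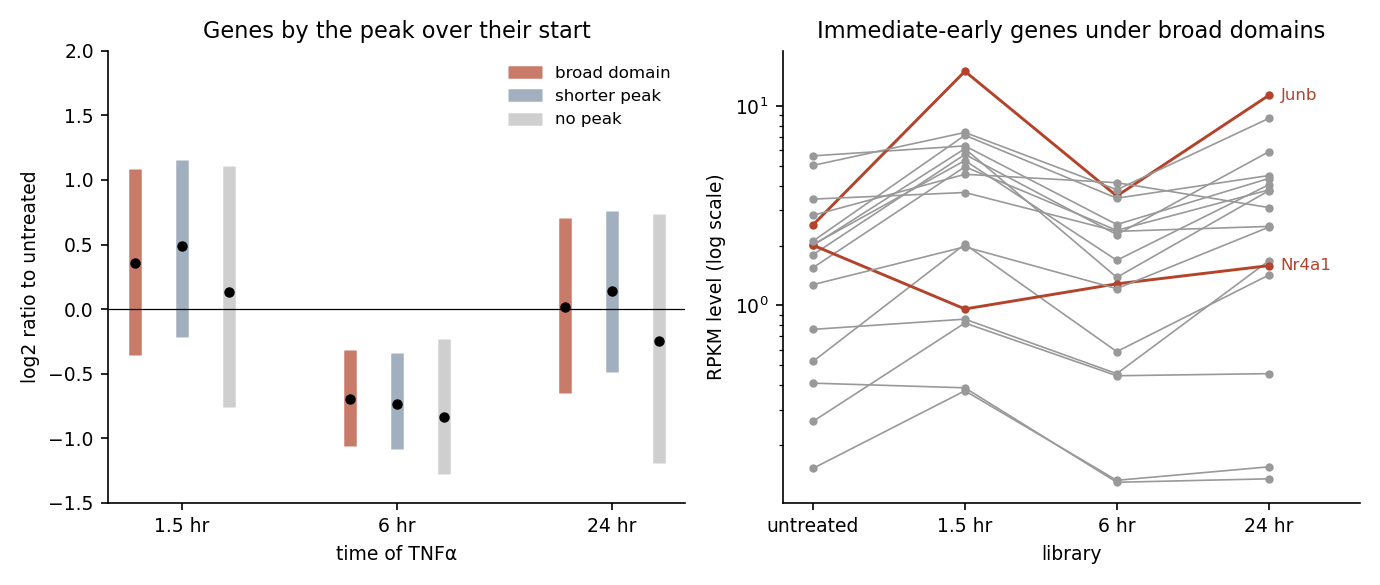
Left, log2 ratios to untreated of genes with an average RPKM level above 1, by the peak over their start, with the median as a point and the quartiles as a bar. Right, RPKM levels (log scale) of the 17 immediate-early genes under broad domains in the 4 libraries, with Junb and Nr4a1 in red. The genes under broad domains moved with the others, to medians of 0.35, -0.69 and 0.01.

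Some immediate-early genes were higher in the TNFα libraries and others were not. Of the 17 under broad domains, 13 passed the filter on level, which includes the TNFα libraries. Klf10, with 0.524 RPKM untreated and 2.03 at 1.5 hr, passed it through its TNFα values and is counted as higher. At 1.5 hr, 7 of the 13 were at least 2-fold higher and 1 (Nr4a1) lower as deposited, with a background of 29.9% and 7.83%. Relative to the median of the 6488 genes, 6 were higher and 1 lower at 1.5 hr, 5 higher and 0 lower at 6 hr, and 4 higher and 0 lower at 24 hr, beside the shares of 15.7% and 17.3%, 7.07% and 3.16%, and 14.2% and 15.2% over all genes tested. Their median relative log2 ratio was 0.95, 0.67 and 0.85, and with GC bins subtracted 0.56, 0.66 and 0.71. Junb had 2.54, 15.0, 3.54 and 11.3 RPKM in the untreated, 1.5, 6 and 24 hr libraries, a log2 ratio of 2.56 at 1.5 hr. Btg2 (an antiproliferative factor) had 2.11, 7.15, 3.46 and 4.49, and Myc had 1.55, 4.97, 2.38 and 3.8. As deposited, each of these 3 genes was lowest in the untreated library and highest at 1.5 hr. Less the median of the 6488 genes, the log2 ratios of Junb were 2.11, 1.22 and 2.05 at 1.5, 6 and 24 hr. Those of Btg2 were 1.31, 1.45 and 0.98, and those of Myc 1.23, 1.36 and 1.19. On that scale Btg2 and Myc were thus highest at 6 hr. Nr4a1, a nuclear receptor, had 2.01, 0.961, 1.28 and 1.58. Relative to the median of the 6488 genes, Nr4a1, Egr1 and Fosl2 were at -1.51, -0.34 and -0.28 on the log2 scale at 1.5 hr.

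The contractile genes differed among themselves. At 1.5 hr, 10 of 18 were at least 2-fold higher and 0 lower as deposited (background 29.9% and 7.83%), and 5 higher and 2 lower relative to the median of the 6488 genes (15.7% and 17.3% of all genes tested). Tagln (transgelin) had 120.2, 332, 70.9 and 327 RPKM in the untreated, 1.5, 6 and 24 hr libraries, and Vim had 60.3, 202, 55.7 and 169.7. Both were high at 1.5 and 24 hr. Tln1 (talin), in contrast, had 25.2, 16.9, 9.64 and 10.2. In the matrix group, as deposited, 3 of 18 were higher and 0 lower at 1.5 hr (background 29.9% and 7.83%), 0 and 7 at 6 hr (1.7% and 31.3%), and 2 and 3 at 24 hr (16.8% and 12.7%). Relative to the median of the 6488 genes the balance turned. At 1.5 hr 1 was higher and 2 lower, and at 6 hr 2 were higher and 0 lower. The shares of all genes tested were 15.7% and 17.3%, and 7.07% and 3.16%, on that scale. The turn at 1.5 hr depended on the scaling: with GC bins subtracted, 2 were higher and 0 lower at 1.5 hr. At 6 hr 2 were higher and 0 lower on this scale too. The shares of all genes were then 10.8% and 10.5%, and 4.89% and 2.60%. Ctgf, a matricellular protein, had 9.08, 28.9, 17.4 and 34.5 RPKM, higher than untreated in each TNFα library. Col1a1 had 514, 277, 236 and 142, lower in each of them.

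Among the transcription factors of mesenchyme, 18 of 34 passed the filter on level. Zeb2, with 0.972 RPKM untreated and 2.85 at 1.5 hr, passed it through its TNFα values and is counted as higher. As deposited, 3 were at least 2-fold higher and 2 lower at 1.5 hr (background 29.9% and 7.83%), 0 and 6 at 6 hr (1.7% and 31.3%), and 3 and 4 at 24 hr (16.8% and 12.7%). Twist2 had 3.21, 16.2, 3.98 and 12.0 RPKM in the untreated, 1.5, 6 and 24 hr libraries. Runx2, a regulator of bone formation, had 2.38, 1.04, 1.13 and 0.863, and Nfix had 29.9, 13.6, 15.1 and 8.27. The direction of this group depended on the scaling. Relative to the median of the 6488 genes, 2 were higher and 7 lower at 1.5 hr, and 1 higher and 1 lower at 6 hr. On that scale the shares of all genes tested were 15.7% and 17.3% at 1.5 hr and 7.07% and 3.16% at 6 hr. At 24 hr they were 14.2% and 15.2%. In TGF-β, BMP and Wnt signalling, 3 of 13 were higher and 1 lower at 1.5 hr as deposited, 0 and 6 at 6 hr, and 1 and 2 at 24 hr, against the same background. Relative to the median of the 6488 genes these counts were 2 and 3, 0 and 1, and 1 and 3, beside the same relative shares. Bmpr2, with 0.641 RPKM untreated and 1.80 at 1.5 hr, passed the filter through its TNFα values and is counted as higher. Tgfb3, a TGF-β ligand, had 28.3, 20.1, 6.69 and 11.1 RPKM, and Tgif1, a repressor of TGF-β responses, had 2.03, 7.23, 1.82 and 5.72. Of the 8 ribosomal protein genes, as deposited, 4 were higher at 1.5 hr (background 29.9%), 4 lower at 6 hr (31.3%) and 2 higher at 24 hr (16.8%). Relative to the median, 3 were higher at 1.5 hr, 0 lower at 6 hr and 2 higher at 24 hr, beside the same relative shares. Psmb3, of the proteasome, had 18.1, 43.1, 9.08 and 31.5 RPKM. Hoxc6 and Hoxd11, the Hox genes that passed the filter, were not 2-fold away from untreated at any time.

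The largest single changes were taken among the 709 genes with an average RPKM level above 1. At 1.5 hr, Sep15 (a selenoprotein) had the highest log2 ratio, 2.96, followed by Junb and by Tubb6 (2.48, a tubulin), and Mbd6, Mll2 and Sox4 had the lowest, -3.01, -2.83 and -2.49. Mll2 encodes a methyltransferase for lysine 4 of histone H3. It had 14.1, 1.98, 13.8 and 1.81 RPKM in the untreated, 1.5, 6 and 24 hr libraries, and Mbd6 had 17.1, 2.12, 17.5 and 2.87. Plec, with the third longest domain, had 56.9, 12.2, 52.7 and 8.07. In these 3 genes the values at 1.5 and 24 hr were low and those of untreated and 6 hr high, as in Neat1 and Malat1. The transcripts of Mbd6, Plec and Mll2 had a GC content of 63.1%, 61.3% and 58.4%, against a median of 53.7% over the 709 genes. That of the Neat1 and Malat1 transcripts was not computed, and a link of GC content to this pattern was not tested.

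Among the same 709 genes, the highest log2 ratios at 6 hr were those of Ssbp3 (1.85), Trim8 (1.68) and Nrp1 (1.22, a receptor of semaphorins and VEGF). Ssbp3 had 14.2, 10.5, 51.1 and 8.34 RPKM in the untreated, 1.5, 6 and 24 hr libraries, and Trim8 had 6.34, 4.82, 20.3 and 5.84. Both stood out only in the 6 hr library. The lowest were Kif26b (-2.59), Tcta (-2.21) and Mn1 (-2.09). At 24 hr the highest were Gnas (2.56, the stimulatory G protein), Filip1l (2.23) and Tubb6 (2.17), and the lowest were Mll2 (-2.96), Plec (-2.82) and Mbd6 (-2.57). Of the 709 genes, 243 (34.3%) were within 2-fold of untreated at all 3 times, against 31.9% of the 6488 genes.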

How the data were processed

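Per the labels, libraries of untreated and TNFα-treated WT MEFs were grouped by time, with 1 library each. The 24 hr library was taken by its title and treatment, although its extraction text describes ChIP. Per the submitters' processing notes, reads were mapped to mm9 with TopHat (RNA) and Bowtie (ChIP), and the authors called peaks with MACS, whose version is not given in the sources used here.

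The deposited peak table holds a tag count for each peak, a score that MACS makes from its p on a log10 scale, a fold enrichment ratio, an FDR in percent and an average tag signal per bp. It lists no peak with a fold enrichment under 20. The deposited RPKM values per RefSeq transcript have 2 columns (R1 and R2) per library, taken as parts of 1 library and averaged. Their difference had a median of 0.05 to 0.12 on the log2 scale in the genes under broad domains. They were divided by 85.7, the median ratio to the scale of the authors' own RPKM lists over 6312 values, so that a level of 1 is on that scale. The number of reads behind a value is not listed. At low values the deposited steps put the columns' depths between 0.858 and 1.19 of the untreated R1 column.

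A gene was covered where the start of a coding transcript of GENCODE vM1 (mm9) lay in the peak, and took the transcript with the highest mean level. Of 22125 annotated coding genes, 19882 matched the table by symbol or by a RefSeq synonym unique on both sides. A gene was tested for a 2-fold ratio where its level averaged above 1 over the 4 libraries, with no pseudocount. This filter thus depends in part on the TNFα values that are then counted. The members and lists were chosen with earlier results of these data known. Named were the genes of the 10 longest domains, the 5 domains with the most tags and with the highest and lowest density, the 5 highest levels and up to 5 listed at 0 (none was), the 3 largest changes each way at each time, and up to 8 genes per list by domain length. Genes named beyond these (the lowest levels, whole-gene domains, noncoding loci, and time courses of list members past the first 8) were chosen after their values were seen. The assignment of starts to domains and a 2-fold cut were tested on planted data. The planted changes lay well past the cut, with no library-wide or GC shift, so this checks the arithmetic only. Python 3.11.15, numpy 2.4.6, pandas 2.3.3, scipy 1.17.1 and matplotlib 3.10.9 were used.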

Additional observations from a re-analysis of the deposited data

Results flagged for a closer look

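The median log2 ratio to untreated of the 709 genes under broad domains had opposite signs at 1.5 and 6 hr of TNFα, 0.35 and -0.69, which is a difference that was not tested because no time was sequenced in replicate. The 6488 coding genes tested moved the same way, with medians of 0.45 and -0.74.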

How the results depend on the processing

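No paired analysis was possible because each time has 1 library. Of 79 alternatives, 42 left a result in place. A count was in place within 1.5-fold, and a share within its exact 95% binomial interval, which treats domains or genes as independent. The median level was in place within the spread of the R1 and R2 columns. Counts called in place could still shift. The 198 genes higher at 1.5 hr became 135 when scaled to the same sum (19.0%, against 21.1% of the 6488 genes). They became 138 with a pseudocount of 1. The number of broad domains was 1531 at a minimum of 5000 bp and 230 at 8000 bp. At 8000 bp, 93.5% covered a coding start. With the start nearest the summit, an alternative chosen after seeing the data, 90.8% in place of 93.9% of the domains with 1 coding gene reached farther downstream than upstream. The share of genes above an untreated level of 1 was 82.2% when transcripts were summed, and the share above 0 was 100%. The median untreated level was 4.10 with summed transcripts, 2.83 at a minimum of 5000 bp and 5.17 at 8000 bp. Genes at least 2-fold higher and lower at 1.5 hr numbered 98 and 138 with a median of ratios. These were 13.8% and 19.5%, against 16.0% and 16.9% of the 6488 genes. The numbers were 77 and 18 at a fold of 3, and 49 and 29 at 8000 bp. At 5000 bp 396 were higher. When scaled to the same sum 107 were lower (15.1%, against 13.1% of the 6488 genes), and with a pseudocount of 1 41 were lower. At 6 hr, higher and lower numbered 57 and 12 when scaled to the same sum (8.04% and 1.69%, against 9.46% and 1.62% of the 6488 genes). With a median of ratios they numbered 46 and 14 (6.49% and 1.97%, against 8.06% and 2.40%). At 6 hr they also numbered 2 and 30 at a fold of 3, and 15 and 364 at 5000 bp. There, 108 were lower with a pseudocount of 1 and 61 at 8000 bp. At 24 hr they numbered 25 and 35 at a fold of 3, 205 and 172 at 5000 bp, and 27 and 44 at 8000 bp. For the fold of 3, the pseudocount and the other length minimums, no share over all genes is given, so these counts describe no difference from other genes. After centring within 20 bins of GC content, chosen after seeing the data, 94 were higher at 1.5 hr, and 32 higher and 17 lower at 6 hr. Thus the 6 hr library had more genes higher than lower under each of the 3 rescalings, and fewer as deposited. The length minimums change which genes are counted, and the cause of the other shifts was not tested. With 1 ChIP library and 1 RNA library per time, none of these values has a replicate, and lengths also depend on the settings of the peak caller.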
